A study of Mus musculus with 9 samples.

Results

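Matured mouse oocytes were profiled for the mRNAs of 52 genes that build, cut, anchor and contract the actin filaments with which an oocyte positions its spindle and expels its polar bodies. The genes were taken by symbol from a fixed list of actin nucleators and regulators, cortical linkers and contractile proteins, and each of the 52 matched 1 row among the 22526 genes of the deposited data. The study compared oocytes of young mice, of aged mice and of mice in an NMN supplementation group, with 3 libraries each. NMN is nicotinamide mononucleotide, a precursor of the coenzyme NAD, and the study's question is whether it counters the decline of oocyte quality with maternal age. All 9 libraries came from metaphase II oocytes of the outbred ICR strain. The labels give no age in weeks for any group, no age at all for the NMN group, and neither a dose nor a route for NMN. How many oocytes or mice stand behind a library is not stated either. A p-value here therefore refers to the variation among the libraries, part or all of which may be technical. Values are FPKM, fragment counts scaled to transcript length and to library depth. They give a share of each library's RNA, so fewer cells of a type and less RNA per cell cannot be told apart.

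Actin filaments grow either as straight cables, started by formins and Spire proteins, or as branched networks, started by the Arp2/3 complex once small GTPases have switched on its activators. In the mouse oocyte, cables made by Fmn2 and the Spire proteins on vesicles carried by myosin Vb move the spindle to the cortex, and a cap of branched actin under active Cdc42 and Rac1 forms above the chromosomes. Cofilin severs old filaments, tropomyosins and capping protein stabilise them, and myosin II pulls on them beneath a membrane to which ezrin, radixin and moesin tie them. The polar body is then cut off by a contractile ring that Ect2, Racgap1, anillin and citron kinase help to assemble.

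By the steps between low values, libraries held an estimated 16.3 M to 19.2 M reads each (M for mega). At that depth 3 reads on a transcript of 2 kb give 0.0779 to 0.0922 FPKM, a floor that covers counting error only. The 10 oocyte markers summed to 5170 to 5451 FPKM in young, 6058 to 7094 in aged and 5374 to 6101 in NMN libraries. Gdf9, Bmp15, Ooep and Padi6 were high in all 9, while Figla stayed at 0 to 1.15 FPKM. Zp1, Zp2 and Zp3 were highest in aged replicate 2, at 277.1, 196.8 and 326.3 FPKM. The other 8 libraries had 58.9 to 172.8, 29.1 to 83.5 and 101.9 to 283.4 FPKM. Ooep and Npm2 were also highest there, at 1081 and 1271 FPKM, and Gdf9 was lowest there, at 2127. Bmp15, Nlrp5, Padi6 and Figla lay within the range of the other libraries. Aged replicate 2 also stood apart in markers of cumulus and granulosa cells, which enclose the oocyte in its follicle. Of the 11 such markers analysed, 5 reached 1 FPKM in it and the 11 summed to 19.4 FPKM, against 1.16 to 2.04 in young, 1.48 and 3.50 in the other aged and 0.851 to 2.81 in NMN libraries. Ptx3, Tnfaip6, Inha, Fst and Foxl2 were listed at 0 in the other 8 libraries and at 6.37, 1.08, 3.17, 2.31 and 0.0943 FPKM in aged replicate 2. Kitl did not follow, at 0.579 to 3.25 FPKM in the other 8 libraries and 0.759 in aged replicate 2. The 6 markers of stroma or blood summed to 6.24 to 10.56 FPKM in the other libraries and 5.555 in aged replicate 2. Most of each sum was Pecam1, at 5.49 to 10.1 FPKM in the other libraries and 5.05 in aged replicate 2. Results that rest on this library are given with and without it, and its part in results that are given only with it was not tested.

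The levels of the 52 genes spanned more than 4 orders on the log10 scale, and the members of one complex were far from equal. Rdx, which codes for radixin, the linker between membrane and cortical actin, led with 944 FPKM as a mean of the 9 libraries. It was at 886, 930.5 and 900.3 FPKM in young, 969, 980.3 and 1026 in aged and 885.5, 987.5 and 932.5 in NMN libraries. Its range was narrow beside that of the other abundant members. Its relatives Msn and Ezr, moesin and ezrin, had means of 0.733 and 0.698 FPKM. Both stayed below 1 FPKM in 8 of the 9 libraries and reached 1.82 and 1.70 FPKM in aged replicate 2.

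Among the subunits of the Arp2/3 complex, Arpc2 had a mean of 226 FPKM and Arpc1b one of 72.9. Actr3, Arpc5 and Arpc4 followed at 18.8, 13.2 and 10.6 FPKM, and Actr2, the other actin-related subunit, at 7.15. Arpc1a and Arpc3 had only 1.33 and 0.937 FPKM. Of the pair Arpc1a and Arpc1b, alternative forms of the same subunit, the b form had the higher value in all 9 libraries. The Arpc1a values are uncertain, because its exons overlap with those of the abundant gene Kpna7, as described below. The activator Wasl, which codes for N-WASP, had a mean of 120.5 FPKM, and the WAVE genes Wasf1 and Wasf2 had 11.9 and 7.20.

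The cable nucleators were among the more abundant members, with Spire1 at 71.4 FPKM, the vesicle motor Myo5b at 67.7 and the formin Fmn2 at 39.0. Spire2, which acts together with Spire1 in oocytes, was at 0.334, 0.664 and 0.559 FPKM in young, 0.414, 1.25 and 0.407 in aged and 0.616, 0.917 and 0.602 in NMN libraries. It passed 1 FPKM in aged replicate 2 alone. Of the diaphanous formins, Diaph3 and Diaph1 had 22.2 and 21.9 FPKM, and Diaph2 had 0.0316. Actin itself was moderate, at 12.9 FPKM for Actb and 4.70 for Actg1. The GTPase Cdc42 had 135 FPKM, Rac1 had 50.1 and Rhoa, the switch for the contractile ring, 5.90. Rac1 ran from 40.6 to 61.7 FPKM over the 9 libraries, and Rhoa from 4.17 to 7.32. The kinase Rock1 had 136 FPKM and its paralogue Rock2 had 1.75.

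**Figure D1:**
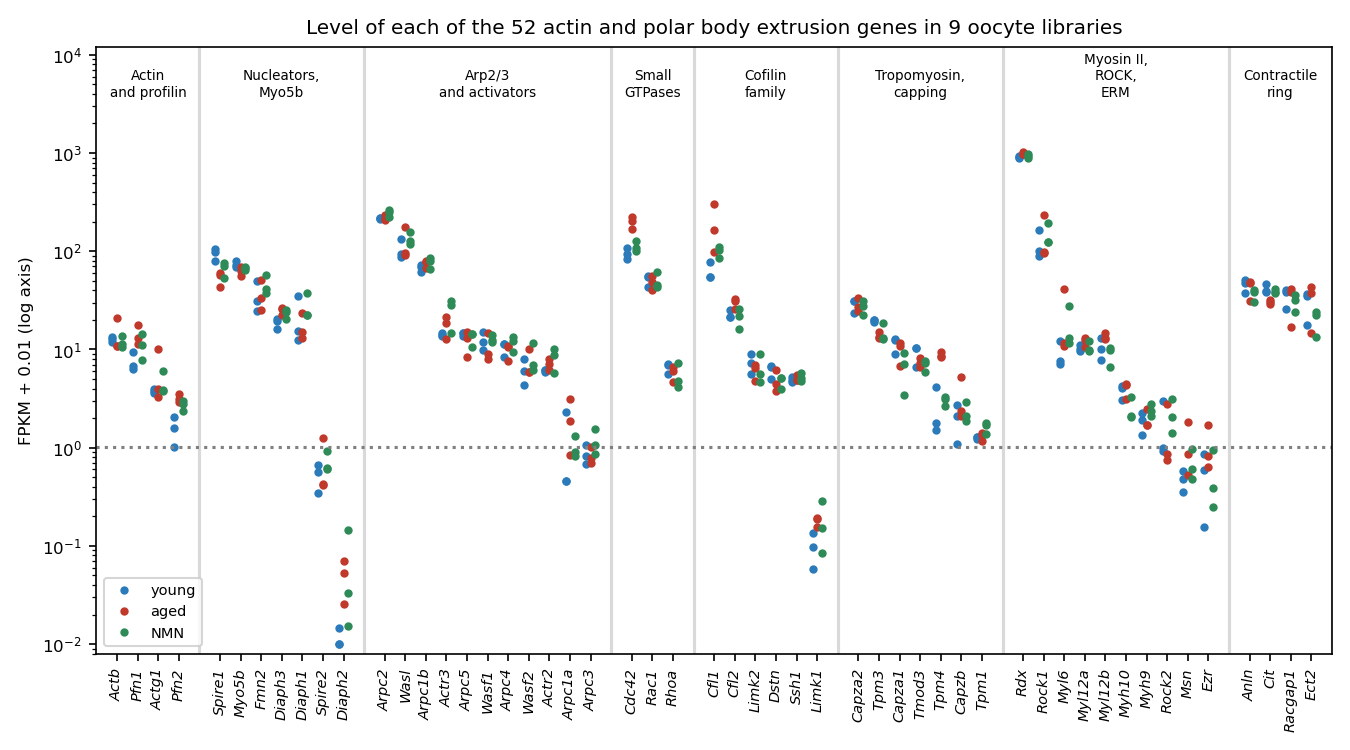
FPKM of each of the 52 genes on a log axis after adding 0.01, grouped by role and ordered by mean, with 1 point per library and the groups in 3 colours. Rdx stands highest at 885.5 to 1026 FPKM, and Spire2, Diaph2, Limk1, Msn and Ezr lie mostly below the dotted line at 1 FPKM.

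Of the 52 genes, 47 had at least 1 FPKM in at least 3 libraries and were tested. Spire2, Diaph2, Limk1, Ezr and Msn were not. The filter was applied to scaled values. On the deposited values Arpc1a, Arpc3 and Rock2 reached 1 FPKM in 4, 3 and 5 libraries. For no tested member did all such libraries come from 1 group. The question of the comparison of aged with young oocytes is which transcripts differ with maternal age, and here 3 of the 47 tested members rose and 0 fell (limma, adjusted p under 0.05 over all 9174 tested genes). Over all tested genes 200 were called, which is 2.18%, with 1.34% higher and 0.839% lower. The 3 that rose were Tpm4, a tropomyosin of the cytoskeleton that wraps around filaments, the GTPase Cdc42, and Cfl1, which codes for the severing protein cofilin.

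Tpm4 was at 1.49, 4.15 and 1.77 FPKM in young replicates 1 to 3 and at 8.38, 8.64 and 9.48 in aged replicates 1 to 3. The NMN replicates had 2.62, 3.16 and 3.24 FPKM. All 3 aged libraries thus lay above the other 6, with no overlap. The group means were 2.47 ± 1.46 FPKM in young and 8.84 ± 0.57 in aged (SD, n = 3), a ratio of 3.58, and the log2 change was 1.56 ± 0.27 (SE, limma adjusted p = 0.0221). All log2 changes are of FPKM + 1, a scale that understates the change of low genes such as this one. The call was lost without young replicate 1 (adjusted p = 0.083), young replicate 3 (0.116) or aged replicate 3 (0.0813).

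Cdc42 was at 84.0, 107.6 and 94.3 FPKM in the young libraries and at 201.6, 167.8 and 225.2 in the aged libraries. In the NMN libraries it was at 101.2, 108.9 and 127.2 FPKM. Again the aged libraries did not overlap with either other group. The mean was 95.3 ± 11.9 FPKM in young and 198 ± 28.9 in aged, with a log2 change of 1.02 ± 0.20 (SE, limma adjusted p = 0.0324). The related GTPases did not pass the test. Rac1 was at 56.4, 43.4 and 55.1 FPKM in young, 40.6, 48.7 and 56.1 in aged and 61.7, 43.6 and 44.9 in NMN libraries (aged against young -0.12 on the log2 scale, 95% interval -0.55 to 0.32). Rhoa was at 5.55, 6.94 and 7.04 FPKM in young, 6.66, 4.64 and 6.04 in aged and 4.17, 7.32 and 4.71 in NMN libraries (-0.17, interval -0.71 to 0.37). In both genes the groups overlapped throughout. The call of Cdc42 was lost, with an adjusted p of 0.108, 0.0925 and 0.13 without young replicates 1 to 3, and of 0.0635, 0.0965 and 0.0516 without aged replicate 1, aged replicate 3 and NMN replicate 3.

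Cfl1 was at 77.9, 54.8 and 54.8 FPKM in the young libraries, at 99.2, 303.3 and 165.3 in the aged and at 103.9, 85.3 and 111.0 in the NMN libraries. The aged libraries lay above all young ones, but spread widely and overlapped with the NMN libraries. Its mean of 62.5 ± 13.3 FPKM in young oocytes compared with 189 ± 104 in aged ones, a log2 change of 1.43 ± 0.32 (limma adjusted p = 0.049). Aged replicate 2, which holds the cumulus transcripts, had the highest value. Without it the log2 change was 1.06 and the adjusted p 0.0498. The call was lost without young replicate 1, 2 or 3 (0.101, 0.174 and 0.196), without aged replicate 3 (0.115) and without NMN replicate 1, 2 or 3 (0.065, 0.0644 and 0.0765). Cfl1 was also not called on values as deposited (0.0665) or with a pseudocount of 0.1 (0.0549). Of the other filament-severing genes, Cfl2 had 21.2, 21.3 and 25.5 FPKM in young and 31.3, 25.9 and 32.7 in aged libraries, without overlap (limma adjusted p = 0.409). Dstn, which codes for destrin, had 6.18 ± 1.02 and 4.82 ± 1.27 FPKM (adjusted p = 0.425). The cofilin kinase Limk2 and the cofilin phosphatase Ssh1 did not pass either, with log2 changes of -0.25 and 0.02.

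The start regions of these 3 genes are shown because they are the members that passed the test. Each holds 300 bases around the annotated start, most of them before it, from RefSeq on build GRCm38.p6, a later build than the mm9 named for the data. Capitals mark every match to the GC box core GGGCGG, to the letters CCAAT and to the letters TATAAA, on either strand and with overlaps allowed.
Cdc42, chr4:137357710-137358009, minus strand: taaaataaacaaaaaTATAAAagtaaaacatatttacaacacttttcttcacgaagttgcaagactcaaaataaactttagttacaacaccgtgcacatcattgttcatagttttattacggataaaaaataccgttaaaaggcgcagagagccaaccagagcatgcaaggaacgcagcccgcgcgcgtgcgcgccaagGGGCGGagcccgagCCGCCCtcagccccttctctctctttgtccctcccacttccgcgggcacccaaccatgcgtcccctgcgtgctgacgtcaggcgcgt
Tpm4, chr8:72135038-72135337, plus strand: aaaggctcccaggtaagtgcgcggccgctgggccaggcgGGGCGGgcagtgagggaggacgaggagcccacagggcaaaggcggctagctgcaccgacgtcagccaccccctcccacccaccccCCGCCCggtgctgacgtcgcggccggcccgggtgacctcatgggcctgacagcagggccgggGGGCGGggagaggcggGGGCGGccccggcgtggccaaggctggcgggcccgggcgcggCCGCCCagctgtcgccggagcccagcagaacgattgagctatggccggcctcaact
Cfl1, chr19:5490205-5490504, plus strand: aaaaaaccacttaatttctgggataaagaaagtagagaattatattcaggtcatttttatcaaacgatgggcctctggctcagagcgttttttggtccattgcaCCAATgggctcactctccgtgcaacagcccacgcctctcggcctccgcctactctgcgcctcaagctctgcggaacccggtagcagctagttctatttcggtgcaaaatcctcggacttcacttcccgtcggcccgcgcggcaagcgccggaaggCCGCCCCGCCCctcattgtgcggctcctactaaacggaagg

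GGGCGG occurred 2 times in the Cdc42, 5 times in the Tpm4 and 2 times in the Cfl1 region. CCAAT occurred 1 time, in Cfl1, and TATAAA 1 time, in Cdc42. The GC content was 49.3% for Cdc42, 76.0% for Tpm4 and 54.7% for Cfl1. The table held 53 regions for 45 of the 52 members. GGGCGG was in 81.1% of these 53 and in 35.7% of all 32851 regions, CCAAT in 35.8% and 37.4%, and TATAAA in 5.66% and 13.6%. The CArG box, the motif of serum response factor, a known regulator of actin genes, was found in the regions of Actg1, Arpc4 and Myl6 (5.66% of the members' regions and 1.63% of all), and in none of the 3 printed here. These are matches of letters and not sites shown to be bound. The 32851 regions were not limited to the tested genes. No comparison with those genes alone, or with regions of like GC content, was made.

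**Figure D2:**
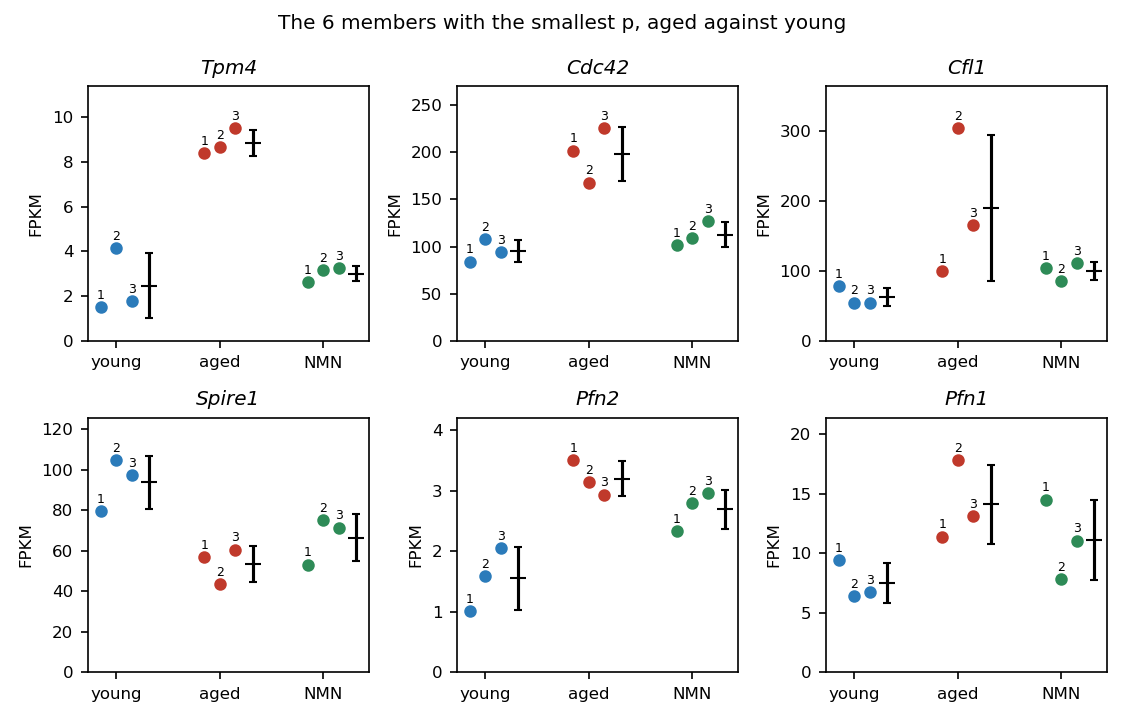
FPKM in each library, with its replicate number, and the mean ± SD of the group (n = 3) in black, for the 6 members with the smallest p in aged against young oocytes. The aged libraries lie above the young in Tpm4, Cdc42, Cfl1, Pfn2 and Pfn1 and below them in Spire1, and only the first 3 named passed the test.

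The members next in order of p did not pass, although with library quality weights Spire1, Pfn1 and Pfn2 did (limma adjusted p = 0.0162, 0.0204 and 0.0478). That run called 857 of all 9174 tested genes, against 200 in the main fit. Spire1, the nucleator that works with Fmn2, had 79.5, 104.9 and 97.5 FPKM in young and 56.9, 43.6 and 60.5 in aged libraries, a log2 change of -0.82 ± 0.23 (SE, limma adjusted p = 0.0942). The groups did not overlap, and the lowest value was again that of aged replicate 2. The profilins, which feed actin monomers to formins, were higher in each aged than in each young library. Pfn1 was at 9.40, 6.38 and 6.74 FPKM in young, 11.4, 17.8 and 13.1 in aged and 14.5, 7.81 and 11.06 in NMN libraries (log2 change 0.80 ± 0.24, limma adjusted p = 0.118). Pfn2 was at 1.013, 1.59 and 2.05 FPKM in young and 3.50, 3.14 and 2.93 in aged libraries (0.72 ± 0.21, adjusted p = 0.11). Cit, which codes for citron kinase of the contractile ring, was at 46.3, 39.6 and 38.8 FPKM in young, 30.5, 28.9 and 32.1 in aged and 38.1, 40.9 and 37.9 in NMN libraries (-0.46, adjusted p = 0.171). Myo5b was at 72.2, 69.8 and 80.3 FPKM in young, 62.2, 55.9 and 68.4 in aged and 64.4, 67.4 and 68.6 in NMN libraries (-0.27, adjusted p = 0.414). Every aged library was below every young one in both genes.

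An unadjusted p under 0.05 was found for 9 members, 6 higher and 3 lower in aged oocytes, where the rate over all tested genes was 18.3%. Including those called, 9 members had all aged libraries above all young ones, among them Diaph3, Cfl2, Actr2 and Rdx, and 4 had them below, namely Spire1, Myo5b, Tpm3 and Cit. That is 27.7% of the 47. Over all 9174 genes 23.8% did not overlap, 12.6% higher and 11.2% lower.

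No member was called when genes of any level were tested, or with the replicate number as a block. With only the aged and young libraries in the fit, Tpm4 was called (limma adjusted p = 0.0467) and Cdc42 and Cfl1 were not (0.0648 and 0.0942). By role, the calls of the main fit were 1 of 3 GTPases, 1 of 5 tested genes of the cofilin group and 1 of 7 tropomyosin and capping genes. Over all tested genes 2.18% were called, and a single gene does not speak for its role. No call was made among the 4 actin and profilin genes, the 5 tested genes of cable nucleation with Myo5b among them, the 11 Arp2/3 and activator genes, the 8 tested cortical genes or the 4 ring genes. Log2 changes in the Arp2/3 group ran from -0.28 for Arpc5 to 0.53 for Arpc1a. Arpc2, the most abundant subunit, was at 215, 216 and 219.5 FPKM in young, 234, 212.5 and 209 in aged and 261, 248 and 221 in NMN libraries. Its change from young to aged was -0.01 on the log2 scale (95% interval -0.36 to 0.33). Wasl was at 134, 88.2 and 94.0 FPKM in young, 91.4, 178 and 95.7 in aged and 157, 127 and 119 in NMN libraries. For Wasl the first young, the second aged and the first NMN library were each the highest of its group.

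Some genes of the cortex and of actin had their high aged value only in aged replicate 2, the library with cumulus markers. Myl6, an essential light chain of myosin II, was at 12.2, 7.67 and 7.11 FPKM in young and 10.9, 41.7 and 11.7 in aged libraries (limma adjusted p = 0.322). It was also high in NMN replicate 1, at 27.6 FPKM against 11.5 and 12.9 in the other NMN libraries, although Ptx3, Inha and Fst were listed at 0 there. Actg1 was at 10.05 FPKM in aged replicate 2 and between 3.26 and 6.08 in the other 8 libraries. Actb was at 13.4, 12 and 12.7 FPKM in young, 10.95, 21.0 and 10.85 in aged and 10.5, 11.3 and 13.6 in NMN libraries. Its log2 change in aged against young was 0.07 with aged replicate 2 and -0.19 without it. Rdx, the most abundant member, had 906 ± 22.7 and 992 ± 30.3 FPKM (log2 change 0.11, interval -0.22 to 0.43), with aged above young in all libraries but no call.

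**Figure D3:**
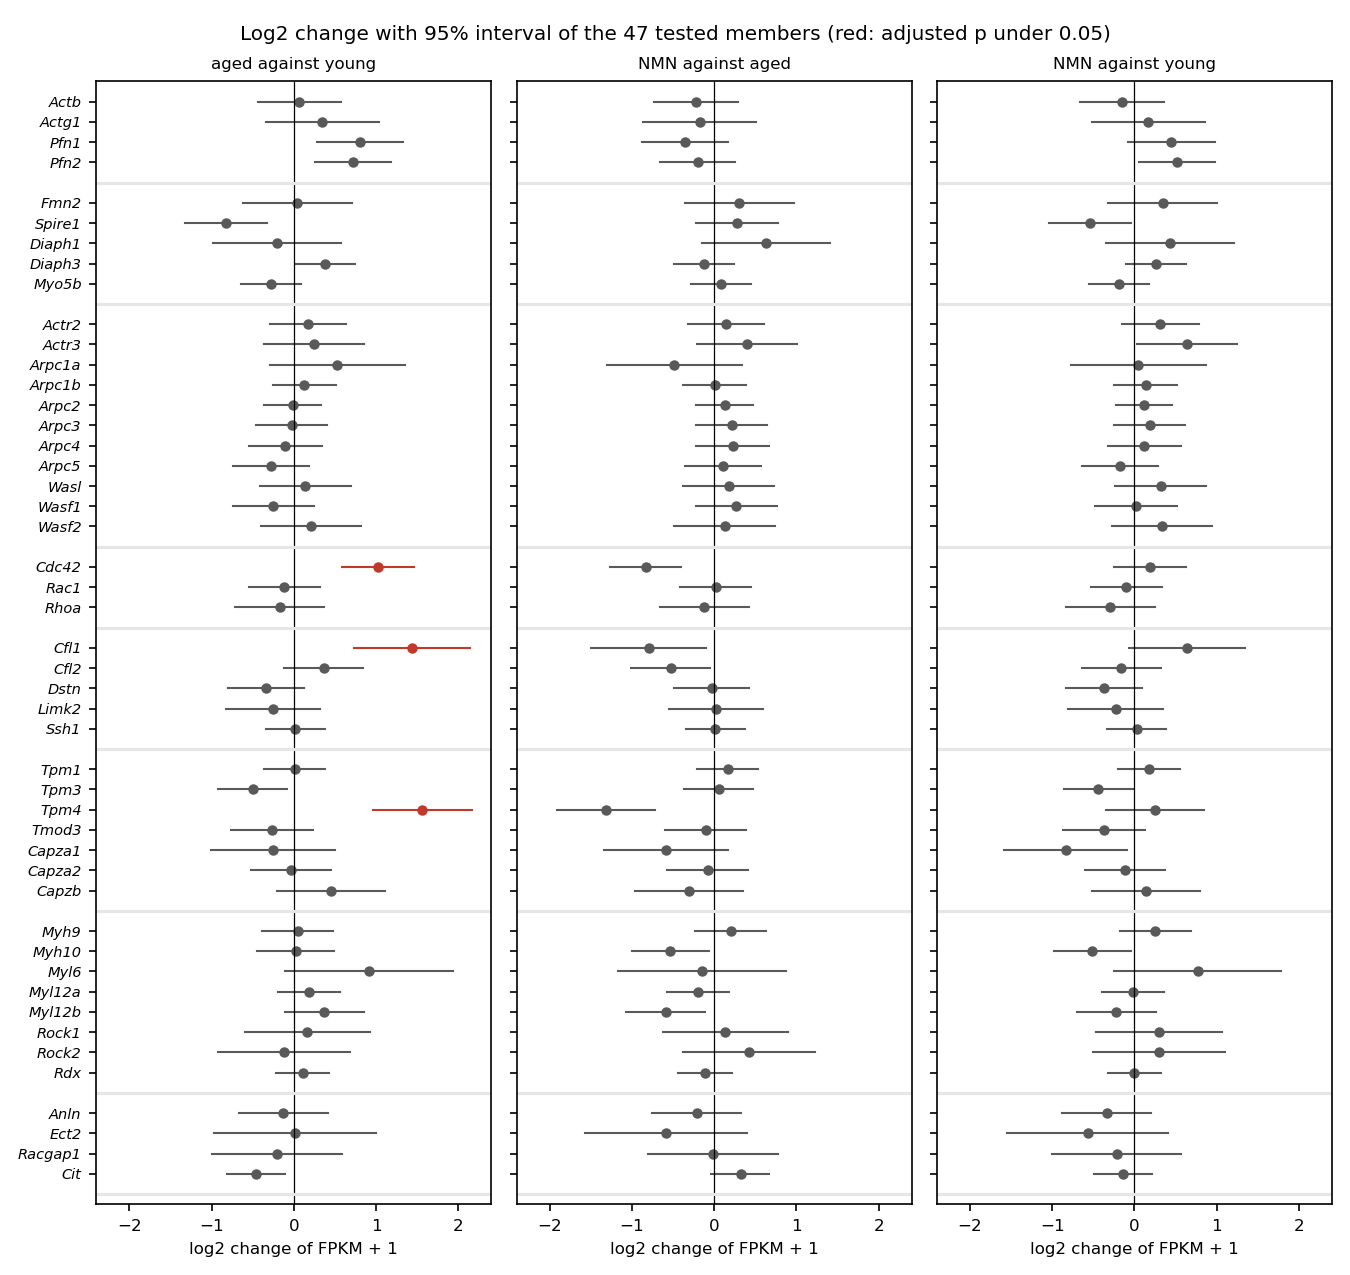
Log2 change of FPKM + 1 with its 95% interval from the limma fit for the 47 tested members in the 3 comparisons, in blocks by role, with genes called at an adjusted p under 0.05 in red. Tpm4, Cdc42 and Cfl1 are red in aged against young, and no member is red in either comparison with NMN.

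The comparison of NMN with aged oocytes asks whether supplementation goes with a difference from aged oocytes. No tested member passed (limma, 0 of 47, and 20 of all 9174 genes, 0.218%, with 0.12% higher and 0.0981% lower). With library quality weights 2 members passed, Tpm4 and Cdc42, in a run that called 146 of all 9174 genes. Unadjusted p-values under 0.05 were found for 6 members (Tpm4, Cdc42, Myl12b, Myh10, Cfl1 and Cfl2), all lower with NMN, where the rate over all genes was 11.2%. The aged libraries serve in both this and the preceding comparison, so a gene that was high in them for any reason appears higher in one and lower in the other. Tpm4 had 3.01 ± 0.34 FPKM with NMN against 8.84 ± 0.57 in aged oocytes, a log2 change of -1.32 ± 0.27 (SE, limma adjusted p = 0.114), and was higher in every aged library than in any NMN library. It passed the threshold when young replicate 2 was left out (adjusted p = 0.0369). Cdc42 had 112 ± 13.3 against 198 ± 28.9 FPKM (-0.83 ± 0.20, adjusted p = 0.137), also without overlap. Cfl1 had 100 ± 13.3 against 189 ± 104 FPKM (-0.80 ± 0.32, adjusted p = 0.395), and without aged replicate 2 the log2 change was -0.43.

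Among the myosin II genes, Myl12b, a regulatory light chain, had 12.9, 14.6 and 13.2 FPKM in aged and 10.35, 6.69 and 9.76 in NMN libraries (log2 change -0.59, limma adjusted p = 0.356). The heavy chain gene Myh10 had 3.13, 4.39 and 4.34 FPKM in aged and 2.04, 2.10 and 3.28 in NMN libraries, which overlap (-0.54, adjusted p = 0.392). Cfl2 had 16.1, 21.7 and 25.5 FPKM in NMN libraries, below all aged ones (-0.53, adjusted p = 0.406). In all, 1 member, Cit, had all NMN libraries above all aged ones, and Tpm4, Cdc42, Cfl2 and Myl12b had them below. That is 10.6% of the 47 members, against 15.7% of all tested genes, 9.13% higher and 6.53% lower. Spire1 was at 66.6 ± 11.8 FPKM with NMN, between aged (53.7 ± 8.94) and young (94.0 ± 13.05), and its difference from aged had an interval of -0.22 to 0.78. Fmn2 was at 36.7 ± 13.3 and 45.1 ± 10.4 FPKM (log2 change 0.30, interval -0.36 to 0.97).

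The comparison of NMN with young oocytes asks how far the supplemented group lies from the young one. No member passed (limma, 0 of 47, with 3 of all 9174 genes called, 0.0327%, 0.0218% higher and 0.0109% lower). With the replicate number as a block 1 gene was called over all genes. Unadjusted p-values under 0.05 were found for 6 members, 2 higher with NMN (Pfn2 and Actr3) and 4 lower (Capza1, Myh10, Spire1 and Tpm3), and the rate over all genes was 8.25%. Pfn2 had 2.33, 2.80 and 2.96 FPKM with NMN against 1.013, 1.59 and 2.05 in young libraries (log2 change 0.52 ± 0.21 SE, adjusted p = 0.553). Spire1 was lower in every NMN library, at 53.1, 75.02 and 71.6 FPKM, than in any young library (-0.54 ± 0.23, adjusted p = 0.573). Myh10 had 3.07, 4.07 and 4.27 FPKM in young libraries (-0.51, adjusted p = 0.573) and overlapped. In 5 members the NMN libraries lay above all young ones and in 3 below, 17% of the 47 against 16.5% of all tested genes, 9.55% higher and 6.99% lower.

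The genes that rose with age did not pass here either. Tpm4 had 3.01 ± 0.34 FPKM with NMN and 2.47 ± 1.46 in young (log2 change 0.25, 95% interval -0.35 to 0.84), and Cdc42 had 112 ± 13.3 and 95.3 ± 11.9 (0.19, interval -0.24 to 0.62). Cfl1 had 100 ± 13.3 and 62.5 ± 13.3 FPKM, with every NMN library above every young one (0.64, interval -0.07 to 1.34, adjusted p = 0.655). For Cfl1 the log2 change in NMN against aged was -0.80, and -0.43 without aged replicate 2, the library with cumulus markers. The intervals against young include 0 and do not show that the groups were alike.

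Some members have near-identical copies, to which sequencing fragments may be assigned in their place. Of the 52 coding sequences, 21 aligned over at least 200 nt at 90% identity or more to another annotated gene, and for 16 such a gene was among the deposited values. The copies of the called genes were low, with a mean of 0.0802 FPKM for Gm7809 (Tpm4) and 0.715 for Gm6180 (Cfl1), and none was found in the data for Cdc42. Adding the copies to the member left the 3 calls in place (limma adjusted p = 0.0222 for Tpm4, 0.0324 for Cdc42 and 0.0472 for Cfl1). This addition was chosen after the data had been seen, and it ignores differences in length between copies.

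For Tpm3, the most abundant tropomyosin, adding the copy turned the sign of the changes against young, none of which was called. Tpm3 was at 19.0, 20.01 and 19.9 FPKM in young, 13.5, 13.0 and 15.04 in aged and 13.1, 12.8 and 18.7 in NMN libraries. Its log2 change was -0.50 ± 0.19 (SE, limma adjusted p = 0.2) in aged and -0.44 ± 0.19 (adjusted p = 0.593) in NMN against young. Tpm3-rs7, which matches the coding sequence of Tpm3 at 100% over 615 nt, was at 2.61, 3.08 and 2.42 FPKM in young libraries. It was at 31.0, 3.41 and 17.4 in aged and at 33.0, 34.1 and 21.3 FPKM in NMN libraries. The NMN libraries thus lay far above every young one, aged replicates 1 and 3 were also high, and aged replicate 2 was near the young level. Its log2 change was 2.97 ± 0.60 in NMN against young (adjusted p = 0.215), 1.88 in aged against young (0.14) and 1.09 in NMN against aged (0.528). Tpm3 and Tpm3-rs7 together had 21.6 to 23.1 FPKM in young, 44.5, 16.4 and 32.5 in aged and 40.01 to 46.9 in NMN libraries, and the log2 changes became 0.33 and 0.91 (adjusted p = 0.627 and 0.475). The sign of the change in Tpm3 is therefore uncertain.

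Actr3 and Capza1 had abundant copies too. Actr3, an Arp2/3 subunit, was at 14.9, 13.7 and 14.1 FPKM in young and 28.3, 30.8 and 14.7 in NMN libraries (log2 change 0.64, limma adjusted p = 0.594). Its copy Gm8822, 98.8% identical over 1258 nt, was at 11.6, 12.4 and 14.4 FPKM in young and 3.70, 1.89 and 9.58 in NMN libraries. With its copies added, Actr3 had 26.3 to 28.8 FPKM in young and 24.6 to 32.7 in NMN libraries, a log2 change of 0.07 ± 0.20 (adjusted p = 0.928). Capza1, a subunit of capping protein, was at 9.06, 12.8 and 12.5 FPKM in young and 3.41, 9.10 and 7.05 in NMN libraries (-0.84, adjusted p = 0.553), and -0.43 with its copy Gm3608, 99.5% identical over 861 nt. Gm9729, which matches Actr2 at 95.1% over 265 nt, was listed at 0 in aged replicate 2 and at 4.06 to 26.2 FPKM in the other 8 libraries, where Actr2 itself ranged from 5.81 to 10.2 over all 9. With Gm9729 added, Actr2 had 10.2, 15.04 and 18.5 FPKM in young, 24.9, 8.03 and 11.9 in aged and 32.2, 28.6 and 32.05 in NMN libraries, so aged and young then overlapped. Its log2 change went from 0.17 to -0.09 in aged against young, from 0.15 to 1.12 in NMN against aged and from 0.32 to 1.02 in NMN against young (adjusted p with the copy 0.922, 0.306 and 0.487). In aged against young, Actr3 likewise went from 0.24 to -0.17 with its copies added (adjusted p = 0.697). Myl12a and Myl12b are copies of each other at 96.5% identity, so their values may be split as well. Arpc1a shares exon sequence with Kpna7 on the opposite strand, which had a mean of 229 FPKM, and no strand was stated for the counting, so the low Arpc1a values are uncertain.

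**Figure D4:**
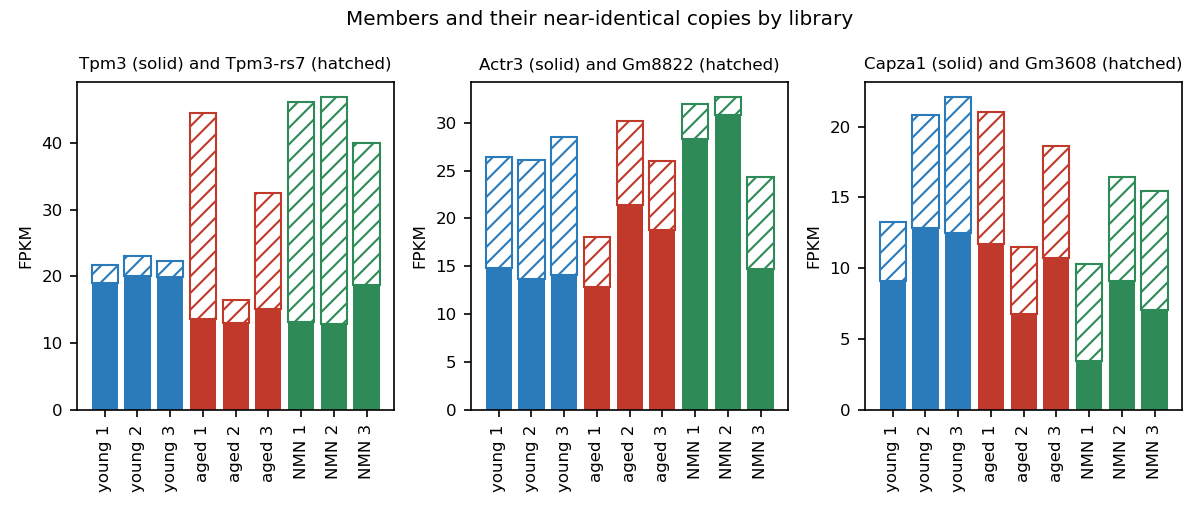
FPKM per library of Tpm3, Actr3 and Capza1 (solid) stacked on the y axis with their near-identical copies Tpm3-rs7, Gm8822 and Gm3608 (hatched), coloured by group. Tpm3-rs7 adds 2.42 to 3.08 FPKM in young and 21.3 to 34.1 in NMN libraries, and Gm8822 adds 3.70 and 1.89 FPKM in NMN replicates 1 and 2, where Actr3 is at 28.3 and 30.8.

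Within every group, 1 library stood apart in the same members. Young replicate 1, aged replicate 2 and NMN replicate 1, chosen after the values had been seen, held the highest value of their group for 12 of the 47 tested members and the lowest for 10. Over all 9174 tested genes the shares were 21.4% and 15.1%, and over the members 25.5% and 21.3%, so the pattern was not shown to be particular to these genes. The members highest there were Rock1, Rock2, Diaph1, Wasl, Wasf2, Fmn2, Pfn1, Myl6, Myl12b, Myh9, Diaph3 and Actr2. Those lowest there were the ring genes Ect2, Racgap1 and Anln with Capza1, Capza2, Tmod3, Cfl2, Rhoa, Cdc42 and Spire1.

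Rock1, which codes for a kinase that activates myosin II, was at 165.4 FPKM in young replicate 1 against 89.3 and 99.5 in the other young libraries. It was at 234 in aged replicate 2 against 97.7 and 95.2, and at 195.5 in NMN replicate 1 against 125.0 and 124.1 FPKM. The spread inside each group was thus larger than the difference between group means, 118 ± 41.3, 142 ± 79.3 and 148 ± 41.0 FPKM. Rock2 in those 3 libraries was 3.19, 3.51 and 1.80 times the mean of the rest of its group, and Diaph1 2.48, 1.69 and 1.65 times. Ect2, the exchange factor that activates Rhoa for the ring, went the other way, at 17.6 FPKM in young replicate 1 against 37.0 and 34.7 in the other young libraries. It was at 14.8 in aged replicate 2 against 42.8 and 37.9, and at 13.4 in NMN replicate 1 against 22.2 and 24.2 FPKM. Racgap1, its partner, was 0.662, 0.425 and 0.708 times the rest, and Anln, which codes for the ring scaffold anillin, 0.758, 0.647 and 0.777 times.

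**Figure D5:**
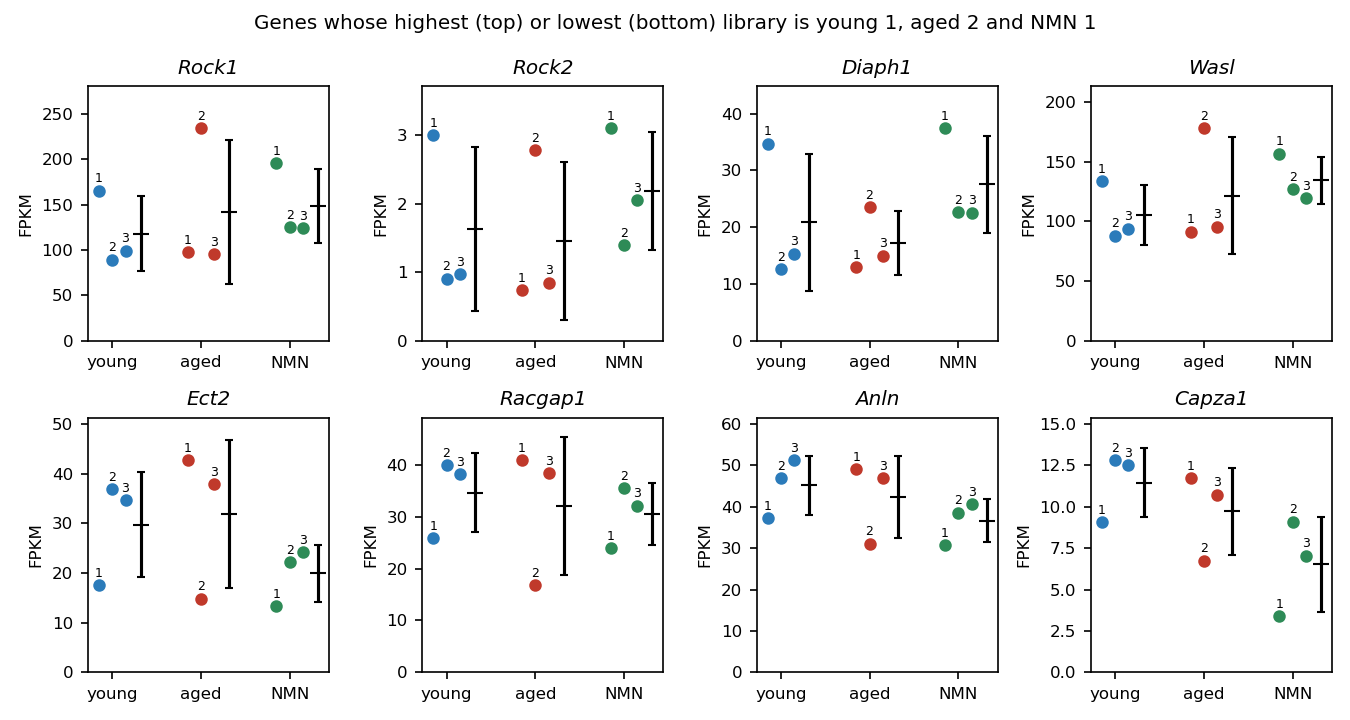
FPKM by library, with replicate numbers and the mean ± SD of each group (n = 3), for Rock1, Rock2, Diaph1 and Wasl (top) and Ect2, Racgap1, Anln and Capza1 (bottom). The genes were picked among the members in which young replicate 1, aged replicate 2 and NMN replicate 1 hold the highest or the lowest value of their group.

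In the ring genes Ect2, Racgap1 and Anln and in the capping gene Capza2, the groups overlapped in every comparison. Among the abundant cortex and ring genes, Rdx had every aged library above every young one, and Cit had every aged library below. Ect2 had means of 29.7 ± 10.6 FPKM in young, 31.8 ± 14.9 in aged and 19.97 ± 5.78 in supplemented oocytes, Racgap1 34.6 ± 7.65, 32.05 ± 13.2 and 30.5 ± 5.94. Anln was at 37.2, 46.96 and 51.3 FPKM in young, 49.1, 31.1 and 46.98 in aged and 30.8, 38.6 and 40.6 in NMN libraries. Capza2, the most abundant capping gene, was at 23.5, 30.9 and 31.05 FPKM in young, 33.4, 24.5 and 27.0 in aged and 22.5, 31.2 and 27.8 in NMN libraries. None of these 4 passed in any comparison (limma adjusted p from 0.659 to 0.994). In Fmn2, by contrast, young replicate 1, aged replicate 2 and NMN replicate 1 were each the highest of their group. Fmn2 was at 50.3, 24.4 and 30.8 FPKM in young, 33.5, 51.3 and 25.3 in aged and 57, 41.0 and 37.4 in NMN libraries. Its change in aged against young was 0.04 on the log2 scale (interval -0.62 to 0.70) and -0.18 without aged replicate 2. For Cdc42 and Spire1, young replicate 1, aged replicate 2 and NMN replicate 1 were each the lowest of their group. Aged and young did not overlap in either gene, as in 23.8% of all tested genes. The part of the library pattern in these differences was not tested.

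Another 115 genes of the actin and cytokinesis machinery that are not among the 52 were examined as a fixed list, of which 78 were tested. In aged against young oocytes 1 rose and 0 fell (limma, 1.28% of those tested, against 2.18% of all tested genes). In NMN against aged 0 rose and 1 fell (1.28%, against 0.218% of all tested genes). In NMN against young 0 passed, against 0.0327% of all tested genes. The gene called in both was Pls3, which codes for plastin 3, a filament bundler, at 0.268, 0.136 and 0.429 FPKM in young, 3.30, 1.49 and 3.46 in aged and 0.126, 0 and 0.257 in NMN libraries. Pls3 passed the filter only through the 3 aged libraries and therefore had to differ, and it is below the filter when any one of them is left out. Its log2 changes were 1.51 ± 0.26 in aged against young (adjusted p = 0.0225) and -1.70 ± 0.26 in NMN against aged (0.0349). The first call was lost without young replicate 1, 2 or 3 (0.083, 0.101 and 0.093). The second was lost without any single young replicate (0.0733, 0.0686 and 0.0732) or NMN replicate (0.124, 0.12 and 0.0934).

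Next in order of p in aged against young were Cap1, Washc4 and Aurkb (limma adjusted p = 0.0684, 0.128 and 0.135). Cap1, which recycles actin monomers with cofilin, had 0.439 ± 0.31 FPKM in young and 1.74 ± 0.30 in aged libraries and also reached 1 FPKM only in the aged. Washc4, of the WASH complex on endosomes, had 14.0 ± 2.86 and 5.74 ± 3.21 FPKM, and Aurkb, which codes for the kinase of the central spindle, 5.72 ± 0.27 and 15.5 ± 5.78. With NMN the nearest to a call, besides Pls3 and Cap1, were Myo1c and Sptan1, a myosin and a spectrin of the membrane skeleton. Myo1c had 32.5 ± 2.53 FPKM with NMN, 18.9 ± 2.54 in aged and 22.1 ± 5.43 in young libraries (adjusted p = 0.195 and 0.512). Sptan1 had 6.93 ± 0.56, 4.48 ± 1.01 and 4.49 ± 0.66 FPKM (0.331 and 0.495). In NMN against young, Tmod2, a tropomodulin, and Prc1, of the spindle midzone, had log2 changes of -0.66 and -0.75 (adjusted p = 0.398 and 0.487). The median log2 change in aged against young was 0.02 over the 47 tested members, -0.07 over these 78 genes and -0.02 over all tested genes.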

How the data were processed

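Messenger RNA of 9 libraries was made by Smart-seq2 from an oligo(dT) primer, per the labels' protocols. The deposited values were treated as FPKM: their title calls them raw counts, but they are fractional, with library totals of 300369 to 329359. The submitters' processing notes name Bowtie2 2.2.5, RSEM and build mm9. Which annotation served is not given in the sources used here. GENCODE M21 had a symbol for 99.83% of the identifiers, and gave names, transcript lengths and coding sequences only. No column belonged to other samples.

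Each library was scaled by a trimmed mean of log ratios to the others (30% of genes trimmed on the ratio and 5% on the level), filtered at 1 FPKM in 3 libraries and tested as log2(FPKM + 1) in limma 3.58.1 (R 4.3.3; trend, robust). All 9 libraries entered 1 fit of group means, and p-values were adjusted by Benjamini-Hochberg over 9174 genes. The fit was tested on simulated data. Intervals are at 95% and come from that fit. Depth used 2659 genes with 1 transcript of over 1500 nt, for which 96.5 to 97.6% of values below 20 reads were whole within 0.02 reads. Copies were found with blastn. FPKM per library, means and SD are as deposited, before scaling.

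Replicate numbers were considered as possible pairs only where all 3 correlations of deviations from the group means passed 0.1. They did for NMN with young (0.496, 0.12 and 0.143), and not for aged with young (-0.339, -0.265 and 0.314) or NMN with aged (-0.371, -0.357 and 0.202). The labels tie the numbers to no animal or day, so these correlations do not show pairing.

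The 52 members and the lists were chosen with earlier results of these data known. Values per library are given for members called in any comparison, the 2 most abundant of each role, Fmn2, Spire1, Spire2, Cdc42, Rac1 and Rhoa, and the 5 smallest p of each comparison, and up to 4 other pathway genes per comparison. Any other member named with values was chosen after they were seen.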

Additional observations from a re-analysis of the deposited data

How the results depend on the processing

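No member was called in NMN against young under any alternative run. In aged against young, 200 genes and 3 members were called. These counts were 27 and 0 with no filter, 129 and 1 (Tpm4) with only the 2 groups compared, 857 and 6 with library quality weights (Pfn1, Pfn2 and Spire1 added), 61 and 0 with the replicate block (adjusted p = 0.0514 for Tpm4, 0.0691 for Cdc42 and 0.105 for Cfl1), and 104 genes at a filter of 10 FPKM. They were 162 and 2 on values as deposited and 152 and 2 with a pseudocount of 0.1, Cfl1 being lost in both. Leaving out 1 library gave 28 to 208 genes and 0 to 3 members. In NMN against aged, 20 genes became 13 and 12 with pseudocounts of 0.1 and 5, 9 with no filter, 4 at 10 FPKM, 7 with 2 groups, 146 with weights and 5 to 28 with 1 library left out. Members numbered 2 with weights and 0 to 1 with 1 library left out. In NMN against young, 3 genes became 5 and 1 with those pseudocounts, 1 with no filter, 1 at 10 FPKM, 16 with 2 groups, 64 with weights, 1 with the block and 1 to 14 with 1 library left out. The cause of these moves was not tested. The call of Pls3 in NMN against aged was kept in 0 of the 6 fits without 1 library in which it was tested, and in 5 of 9 other settings. Same-numbered libraries did not all deviate together in either comparison with aged oocytes. For NMN with young they did, but young replicate 1 and NMN replicate 1 also stood apart in the same members, so pairing is not shown. With the block no member was called there, and none was called without it.

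Sign turns were recorded for the genes with values per library and, with copies added, for all 16 members with a copy. The turned log2 changes were mostly close to 0, and none belonged to a called gene. In aged against young they were 0.009 for Arpc2 with unscaled values, 0.332 for Tpm3, -0.172 for Actr3 and -0.094 for Actr2 with copies added, and with weights -0.134 for Actb, -0.041 for Fmn2, -0.037 for Myh10 and -0.012 for Rock1. In NMN against aged, weights gave 0.083 for Actb, -0.004 for Myo5b and -0.132 for Rac1. In NMN against young, Rdx was 0.045 unscaled and Tpm3 0.908 with copies. With 1 library left out, changes in aged against young ran from -0.187 to 0.214 for Actb, -0.271 to 0.119 for Anln, -0.088 to 0.049 for Arpc2, -0.415 to 0.004 for Capza1, -0.177 to 0.103 for Capza2, -0.182 to 0.310 for Fmn2, -0.103 to 0.132 for Myh10, -0.216 to 0.418 for Rock1, -0.141 to 0.063 for Sptan1 and -0.127 to 0.306 for Wasl. In NMN against aged they ran from -0.360 to 0.036 for Actb, -0.215 to 0.070 for Capza2, -0.033 to 0.162 for Myo5b, -0.281 to 0.109 for Prc1, -0.125 to 0.136 for Rac1, -0.342 to 0.028 for Rhoa, -0.076 to 0.515 for Rock1 and -0.110 to 0.144 for Tpm3. In NMN against young they ran from -0.206 to 0.496 for Aurkb, -0.065 to 0.249 for Cap1, -0.254 to 0.026 for Capza2, -0.300 to 0.026 for Cfl2 and -0.060 to 0.052 for Rdx. Spire2, Diaph2, Limk1, Ezr and Msn were too low to be tested with the filter.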
